A study of Mus musculus with 12 samples.

Results

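The nuclear genes of the mitochondrial respiratory chain and the mitochondrial ribosome were followed through 6 OK-seq tracks of mouse pluripotent cells. The genes were chosen by name among autosomal protein-coding genes (GENCODE M21, mm10), by the prefixes Nduf, Uqcr, Cox4 to Cox8, Atp5, and Mrpl or Mrps followed by a digit. The rule gave 165 of 20807 autosomal genes. They were 36 complex I subunits, 8 complex I assembly factors, 8 genes of complex III, 17 of complex IV, 18 of ATP synthase, 49 of the large and 29 of the small mitoribosomal subunit. Atp5o is annotated as 2 genes, so the members carried 164 distinct symbols. The prefix is not the function in every case, since Ndufa4 encodes a protein now placed in complex IV and Mrps36 a component of the 2-oxoglutarate dehydrogenase complex.

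The series held 12 samples, 3 lines in 2 states with 2 replicates each, and the deposited tracks summed the replicates of a condition. The control was the KMT2C KO line, so it already lacked KMT2C, an enzyme that writes H3K4me1 at enhancers. KMT2C/D dKO cells came from the KMT2C KO/KMT2D cKO line by 4-hydroxytamoxifen and Cre-ER, which removes the related KMT2D as well. In KMT2C/D dCD cells both proteins are made but are catalytically dead. These dCD cells descend from the R1 line of a 129 strain background and the control and dKO cells from a mixed C57BL/6 and 129 background, so for dCD the genotype and the line cannot be told apart. Naive ESCs were kept in LIF and 2i, and EpiLCs, which resemble the early postimplantation epiblast and are called formative in the labels, were made from each line by withdrawing both.

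Oxidative phosphorylation joins 2 genomes. Mitochondrial DNA encodes only a small core of the respiratory chain, and all other subunits are nuclear genes scattered over the chromosomes. Complex I passes electrons from NADH to ubiquinone, complex III from ubiquinol to cytochrome c and complex IV from cytochrome c to oxygen, and ATP synthase uses the proton gradient that they build. The mitoribosome makes the core subunits, and every protein of it is imported. Most of these genes are transcribed in every cell from CpG-rich promoters, many with sites for NRF1, for the ETS factor GABP and for YY1, which are known regulators of mitochondrial genes. In complex IV and in the NDUFA4 family some subunits also exist as isoforms restricted to muscle, lung, testis or hypoxic cells.

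OK-seq reads the direction of replication forks. Okazaki fragments are made on the lagging strand, so the strand of a fragment tells which way its fork was moving. Where forks tend to start, the share of Crick reads rises from left to right, and where they meet it falls. Strand bias, in percentage points, is here a difference of Crick shares around a transcription start site (TSS): the share over 25 kb on the right less the share over 25 kb on the left, from summed reads. Its sign is the same for genes on either strand, 89 of the 165 being on the minus strand. The question was whether forks tended to start near these promoters, as replication often does near active genes, and whether that differed with KMT2C/D status or cell state.

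The promoters of 8 members are shown because they carry the contrasts met below. Each is 180 bases long, from 150 before to 30 after the RefSeq start in GRCm38.p6, written 5′ to 3′ along the gene. Capitals mark known motifs on either strand. For NRF1 the letters searched were GCATGCGC. The ETS factors were searched by CCGGAAGT, a core that GABP can bind. For YY1 they were AAGATGGCG. The TATA box was searched as TATAAA. Overlapping copies are capitalised as 1 run. Ndufaf4, an assembly factor of complex I, lies at chr4:24897933-24898112 (plus strand), and Uqcr11, a small subunit of complex III, at chr10:80406792-80406971 (minus strand). Both held the NRF1 letters, and their strand bias was 20.1 and -6.37 points with reads of the 6 tracks summed.
Ndufaf4: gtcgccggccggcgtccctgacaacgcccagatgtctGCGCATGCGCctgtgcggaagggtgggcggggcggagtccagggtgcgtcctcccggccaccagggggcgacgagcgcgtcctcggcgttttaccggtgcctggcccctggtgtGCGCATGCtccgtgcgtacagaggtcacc
Uqcr11: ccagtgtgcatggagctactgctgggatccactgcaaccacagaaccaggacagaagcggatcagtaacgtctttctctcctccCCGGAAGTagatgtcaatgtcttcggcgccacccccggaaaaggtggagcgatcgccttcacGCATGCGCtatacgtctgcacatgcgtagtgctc
Mrps27, a protein of the small mitoribosomal subunit, lies at chr13:99344636-99344815 (plus strand), and Ndufaf8, a complex I assembly factor, at chr11:120098784-120098963 (plus strand). Both held the YY1 letters just after the start, with a strand bias of 12.2 points at Mrps27 and 1.07 at Ndufaf8.
Mrps27: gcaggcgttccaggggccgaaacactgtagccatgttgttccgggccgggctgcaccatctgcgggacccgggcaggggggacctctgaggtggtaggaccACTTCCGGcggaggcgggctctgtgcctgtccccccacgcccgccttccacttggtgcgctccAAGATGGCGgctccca
Ndufaf8: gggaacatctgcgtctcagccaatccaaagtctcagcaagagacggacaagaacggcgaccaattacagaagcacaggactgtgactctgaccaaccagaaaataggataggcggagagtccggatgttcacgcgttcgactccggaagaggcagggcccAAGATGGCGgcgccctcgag
Cox7a2 and Cox7a1 encode the widely used and the heart and muscle isoform of the same complex IV subunit, at chr9:79759824-79760003 (minus strand) and chr7:30184021-30184200 (plus strand). The first promoter held 15 CpG dinucleotides and the second 6.
Cox7a2: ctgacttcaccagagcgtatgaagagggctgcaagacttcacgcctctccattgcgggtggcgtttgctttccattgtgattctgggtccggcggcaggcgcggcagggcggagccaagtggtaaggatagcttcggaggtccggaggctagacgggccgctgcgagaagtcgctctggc
Cox7a1: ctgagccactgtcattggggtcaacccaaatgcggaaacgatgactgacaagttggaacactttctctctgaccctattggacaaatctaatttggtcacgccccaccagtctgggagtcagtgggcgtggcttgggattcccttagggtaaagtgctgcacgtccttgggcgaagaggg
Cox8a and Cox8b are a like pair, at chr19:7217587-7217766 (minus strand) and chr7:140900417-140900596 (minus strand). The widely used Cox8a had 16 CpG dinucleotides and the ETS letters, and the muscle gene Cox8b had 1 CpG and a TATA box.
Cox8a: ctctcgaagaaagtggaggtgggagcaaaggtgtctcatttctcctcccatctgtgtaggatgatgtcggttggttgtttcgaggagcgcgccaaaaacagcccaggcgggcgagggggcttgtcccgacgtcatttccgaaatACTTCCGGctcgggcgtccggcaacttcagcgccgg
Cox8b: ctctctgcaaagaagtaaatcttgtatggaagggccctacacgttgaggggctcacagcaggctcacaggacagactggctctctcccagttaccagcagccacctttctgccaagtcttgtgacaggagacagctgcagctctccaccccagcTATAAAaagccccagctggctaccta

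No member had fewer than 10 reads on a side in any track, so all 165 were kept, but single genes were thinly covered. The median member had 101 to 124 reads on both sides together in the naive tracks and 298 to 353 in the EpiLC tracks, whose totals were 3655095 to 4409068 and 11407678 to 13601460 reads. Since these tracks do not separate the replicates, no condition could be set against the spread between its replicates, and the 95% intervals given in parentheses (Newcombe, from Wilson intervals) cover counting error only. Reads were not marked by molecular identifiers. Members also differed among themselves far beyond counting, with a standard deviation over genes of 8.56 points in the summed reads against 2.71 from counting, and the intervals of summed reads leave that spread out. In addition, the Crick share of a bin rose with its excess of T over A, with a fitted slope of 1.21 to 1.82 percent Crick reads per percent of T minus A. Around members T minus A was higher to the right of the TSS by 2.11 percent of bases. Values from which the part fitted to T minus A was subtracted are called corrected for T minus A, and values without these words are as deposited.

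In every library the summed strand bias of the mitochondrial genes lay above 0. It was 8.71 points (7.32 to 10.1) in naive control, 6.36 (4.88 to 7.83) in naive dKO and 8.34 (6.82 to 9.84) in naive dCD cells. In EpiLCs it was 4.14 (3.25 to 5.02) in the control, 5.29 (4.47 to 6.11) in dKO and 6.23 (5.42 to 7.05) in dCD cells. The naive values were above the EpiLC value of the same line in all 3 lines, and naive dKO lay close to EpiLC dCD. In the 6 libraries together the Crick share was 47.2% of 108079 reads to the left and 53.1% of 109223 reads to the right, a difference of 5.91 (5.49 to 6.33).

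Other autosomal genes had a bias of the same order. Their values were 6.72, 6.53 and 7.17 points in naive control, dKO and dCD cells and 4.46, 4.79 and 5.20 in the EpiLC libraries in that order. Members exceeded them by 1.99 (0.60 to 3.38) in naive control and by 1.03 (0.21 to 1.86) in EpiLC dCD cells. In the other 4 libraries the interval of the difference held 0, at -0.17 (-1.66 to 1.31) in naive dKO, 1.16 (-0.36 to 2.68) in naive dCD, -0.32 (-1.21 to 0.57) in EpiLC control and 0.50 (-0.33 to 1.32) in EpiLC dKO cells. The sign depended on the window and on the genes compared. With 50 kb members were above other genes in each library, by 1.67 (1.09 to 2.26) in EpiLC dKO to 3.81 (2.73 to 4.89) in naive dCD cells. Within the highest CpG quartile they were below in each, from -5.01 in naive dCD to -2.91 in EpiLC dCD cells, with -4.68 in naive control cells.

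Corrected for T minus A, the bias of the members was 4.60, 2.40 and 4.42 points in naive control, dKO and dCD cells and 1.54, 2.27 and 3.15 in the EpiLC libraries in that order. Every one of these intervals still lay above 0, the nearest to it being 0.65 to 2.43 in EpiLC control cells. The other genes gave 2.93, 2.89, 3.28, 1.95, 1.95 and 2.25 points in the same order and correction.

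**Figure D1:**
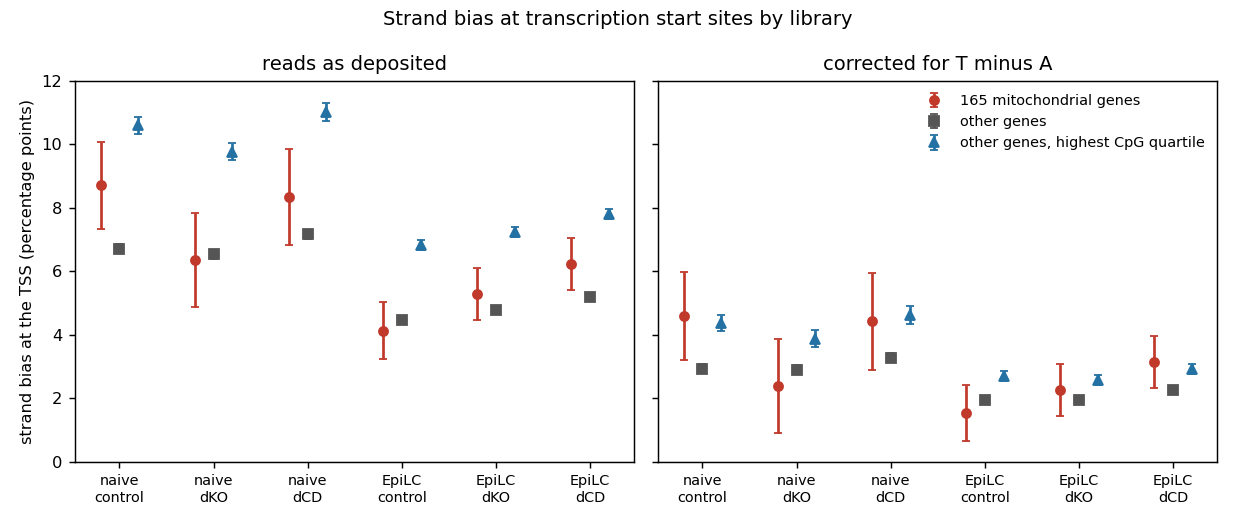
Strand bias at the TSS in percentage points for the 165 mitochondrial genes, all other autosomal protein-coding genes and other genes of the highest CpG quartile, by library, with reads as deposited (left) and corrected for T minus A (right). Points are reads summed over genes and bars are 95% counting intervals; the mitochondrial genes sit between 4.14 and 8.71 on the left, below the CpG-rich genes in every library, while on the right they are above them in naive control (4.60 against 4.36) and EpiLC dCD cells (3.15 against 2.92).

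The profile around the TSS of members was a broad slope. Here each gene was turned into its own direction, and the share of reads on the strand that marks forks moving along the gene was taken in steps of 5 kb. Over the 6 libraries the share at members was 42.3% at 50 to 45 kb upstream, 47.0% in the last 5 kb before the TSS, 52.4% in the next 5 kb after it and 56.0% at 70 to 75 kb downstream. The sharpest single step was at the TSS in each library, from 3.76 points in EpiLC control to 9.35 in naive control cells. At other genes the share was 51.1% just before and 54.9% just after the TSS, which was also their highest value.

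In the 25 kb downstream of the TSS, forks moving along the gene made up 51.8% of reads at members and 54.3% at other genes, and in the 25 kb upstream 45.8% and 49.1%. The downstream share was lower at members than at other genes in all 6 libraries, at 50.5% to 54.0% against 53.6% to 55.7%. From other genes the flanks differed most at a distance. Downstream minus upstream was 10.2 points (9.80 to 10.7) at 25 to 50 kb and 11.3 (11.0 to 11.6) at 50 to 100 kb, against 6.09 and 5.99 at other genes. At 50 to 100 kb members exceeded other genes by 4.72 to 7.12 points in single libraries and by 5.29 (4.99 to 5.60) in the sum. Against other CpG-rich genes the excess was smaller, 1.81 (1.5 to 2.12) there and 0.72 (0.29 to 1.15) at 25 to 50 kb, where EpiLC libraries gave 0.37 (-0.13 to 0.87). Within 25 kb members minus these genes was -2.06 (-2.48 to -1.63). After correction for T minus A the same contrasts were 2.19 (1.88 to 2.50) at 50 to 100 kb, 1.57 (1.14 to 2.0) at 25 to 50 kb, with 1.2 (0.70 to 1.70) in EpiLCs, and -0.33 (-0.76 to 0.10) within 25 kb. The EpiLC contrast then excluded 0 and the one within 25 kb no longer did. These distances were chosen after the profile was seen.

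The step at the TSS was seen in the reads as deposited and not after correction for T minus A. After it the share of members was 48.8% just before and 48.7% just after the TSS, and it passed 50% only at 15 to 20 kb downstream (50.5%). Other genes had no clear step after it either, with 51.3% before and 51.4% after, and their highest share, 52.1%, was at 85 to 90 kb. The flanks of members beyond 50 kb still differed, by 9.15 points (8.85 to 9.45), against 4.45 at other genes. Members thus lay on a broad slope in both treatments of the reads, with a step at the TSS in the reads as deposited alone. Read density was 1.03 to 1.13 times as high within 2 kb of the TSS as at 10 to 25 kb, and 1.04 to 1.12 times at other genes.

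**Figure D2:**
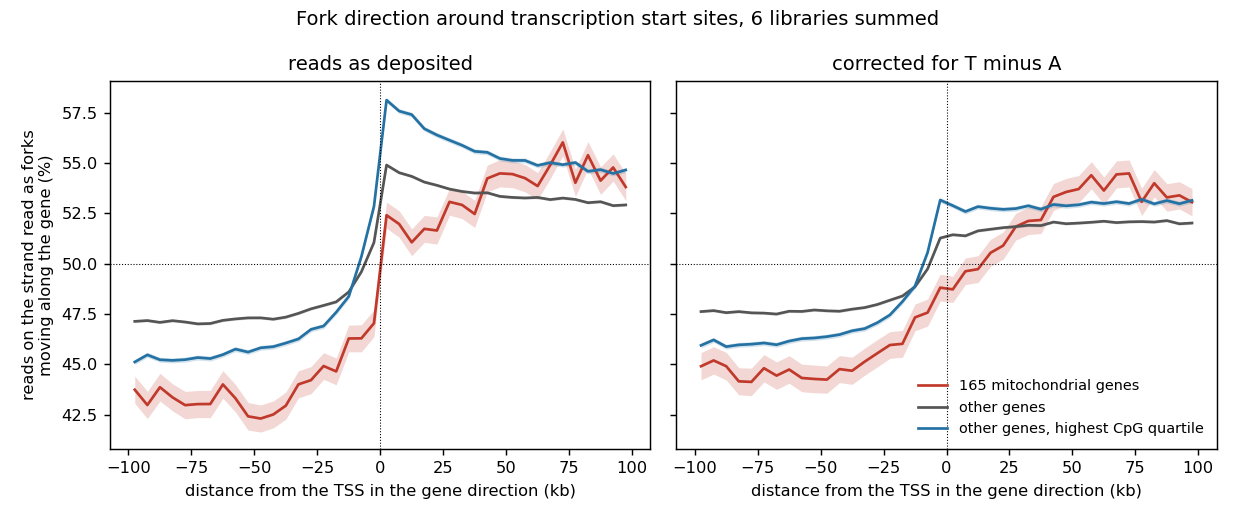
Share of reads (%) on the strand read as forks moving along the gene, against distance from the TSS in the gene direction (kb), in 5 kb steps with reads of the 6 libraries summed, as deposited (left) and corrected for T minus A (right). Bands are 95% counting intervals; the line of the 165 mitochondrial genes climbs from 42.3% to 56.0% on the left, and on the right it is 48.8% and 48.7% on the sides of the TSS.

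With reads as deposited, CpG content ordered other genes but not these. A count of CpG dinucleotides within 500 bases of the TSS had a median of 55 at members and 42 at others. From the lowest to the highest quartile of this count, other genes had a strand bias of 1.55, 4.16, 6.40 and 8.08 points in the 6 libraries summed. Members ran the other way. The 3 members of the lowest quartile (Mrpl35, Atp5j2 and Cox7a2l) had 15.1 points (11.98 to 18.1), 36 of the second 6.81 (5.89 to 7.73), 90 of the next 6.03 (5.47 to 6.60) and 36 of the highest 4.15 (3.27 to 5.04). The lowest group is too small to stand for an order, since Mrpl35 alone was at 32.4 points.

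Against other genes of the highest quartile, the 36 CpG-rich members differed by -3.93 points (-4.82 to -3.04). Their values were 5.92, 5.50 and 6.0 points in naive control, dKO and dCD cells and 3.53, 2.37 and 4.90 in the EpiLC libraries, each below the other CpG-rich genes, at 10.6, 9.77, 11.0, 6.83, 7.24 and 7.81. The difference was -4.65 (-6.42 to -2.88) in the 3 naive libraries together and -3.71 (-4.74 to -2.68) in the EpiLC ones. Corrected for T minus A it was -2.21 (-3.10 to -1.32). Over all 165 members the gap to other CpG-rich genes was -2.17 (-2.60 to -1.74), and after the correction -0.38 (-0.81 to 0.04), an interval that held 0.

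**Figure D3:**
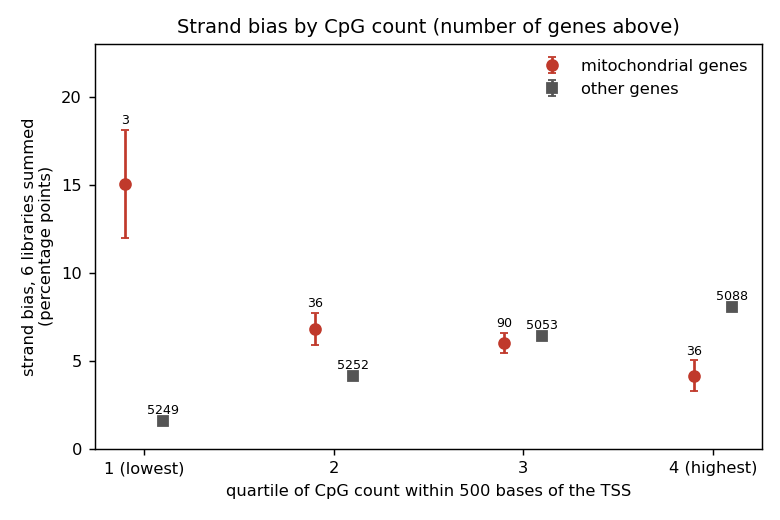
Strand bias in percentage points, 6 libraries summed and reads as deposited, by quartile of the CpG count within 500 bases of the TSS, for mitochondrial genes and other genes. Points are reads summed over genes, bars 95% counting intervals and the numbers above them genes; other genes climb from 1.55 to 8.08 and mitochondrial genes go from 15.1 (3 genes) to 4.15.

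Mitochondrial genes are short and lie among other genes. Their median length was 7.76 kb against 17.8 kb. A divergent partner, a gene on the opposite strand starting within 1 kb, was found at 46 members (27.9%) and at 8.0% of other genes, and another TSS within 25 kb at 132 members (80.0%) against 54.2%. The 33 members with no other TSS nearby had 7.29 points (6.30 to 8.28) and the 132 with one 5.60 (5.14 to 6.07). The difference was -1.68 (-2.78 to -0.59), and -2.57 (-3.66 to -1.47) corrected for T minus A, the crowded ones being lower. Members with and without a divergent partner had 5.43 and 6.10 points, and that difference of -0.68 (-1.61 to 0.25) held 0, but was -1.54 (-2.48 to -0.61) after the correction. The 18 members over 25 kb long had 8.25 points, against 5.64 for the 111 under 10 kb and 5.62 for the 36 between. After the correction the long genes had 2.08, the middle group 2.15 and the short genes 2.98, so the order turned.

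Single genes ranged from -16.5 to 32.4 points in the 6 libraries summed, with a median of 5.57 against 4.93 at other genes. The bias was above 0 at 127 members (77.0%) and at 72.5% of other genes. After the correction it was above 0 at 107 (64.8% against 62.6%), since 26 members turned from above to below 0 and 6 the other way. Of genes described below, Ndufa4 (-4.15), Mrps27 (-3.09), Cox4i1 (-2.91), Uqcrc1 (-1.88), Cox8c (-1.30) and Ndufv1 (-0.64) turned below 0, and Ndufaf3 (2.76), Mrps12 (0.28) and Cox7a1 (0.04) above it. Sums of the 7 classes then ran from 2.04 (1.03 to 3.06) in the small mitoribosomal subunit to 3.48 (2.15 to 4.81) in complex IV, all overlapping, so the order of classes given below holds as deposited only. Its interval lay above 0 at 84 members (50.9% against 46.9%) and below 0 at 14 (8.48% against 9.20%). The repeat across libraries was counted with reads as deposited only. At 67 members (40.6%) the bias was above 0 in all 6 libraries, against 31.0% of other genes, and at 5 members (3.03%) in none, against 4.87%. It was above 0 in 5 libraries at 22 members (13.3%), against 19.3%, and in 2 libraries at 21 (12.7%), against 10.1%.

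A bias of at least 10 points was counted in each library. In naive control cells 76 members (46.1%) passed and 39.6% of all tested genes. In naive dKO cells 65 (39.4%) passed against 39.8%, and in naive dCD cells 75 (45.5%) against 41.1%. In EpiLC control cells 47 (28.5%) passed against 26.7%, in dKO cells 52 (31.5%) against 28.2% and in dCD cells 60 (36.4%) against 29.4%. Fewer passed once corrected for T minus A, and the order of the gaps changed. They were then 56 (33.9% against 26.02%), 43 (26.1% against 27.3%) and 47 (28.5% against 28.1%) in naive control, dKO and dCD cells. In EpiLCs they were 20 (12.1% against 14.1%), 30 (18.2% against 13.1%) and 30 (18.2% against 15.04%). The share of members was above the background in both treatments in naive control, EpiLC dKO and EpiLC dCD cells. In naive dCD cells it was above it as deposited and near it corrected (28.5% against 28.1%). It was slightly below in both in naive dKO, and above as deposited but below corrected in EpiLC control cells.

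Gene order repeated between libraries. Pearson's r over the 165 members was 0.507 to 0.690 between single libraries and 0.760 between the 3 naive and the 3 EpiLC libraries summed, as a description, since the libraries share the sequence of each window and 5 pairs of members share reads. The summed bias of members was above 0 on 17 to 19 of the 19 autosomes in each library. Chromosome 13 (11 members, 13.9 points) and chromosome 16 (7 members, 13.5) were highest, where other genes had 5.04 and 5.57. Chromosome 10 was the one below 0, at -0.44 (-2.24 to 1.37) over 8 members, where other genes had 4.99.

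Complex I, the entry of electrons from NADH, had a summed bias of 8.40, 4.0 and 8.41 points in naive control, dKO and dCD cells and of 3.62, 4.26 and 5.92 in the EpiLC libraries. In the sum it was 5.22 (4.31 to 6.12), and of its 36 subunits 26 (72.2%) lay above 0, against 72.5% of other genes. The whole interval was above 0 at 18 of the 36, against 46.9% of other genes, and below 0 at 6 (16.7% against 9.20%). Ndufs4 (chr13:114287795-114388258), a subunit needed for assembly of the NADH-oxidising arm, was the highest. Its bias was 42.3, 27.8 and 20.6 points in naive control, dKO and dCD cells and 16.6, 19.2 and 23.9 in the EpiLC libraries. Each of the 6 libraries was well above 0, and the sum was 22.4 (16.8 to 27.7), or 9.38 corrected for T minus A. Ndufs1 (chr1:63143596-63176833), the largest iron-sulfur subunit, had 1.76, 20.1 and 12.4 points in the naive and 12.04, 18.8 and 6.03 in the EpiLC libraries. All were above 0, with naive control the lowest, and the sum was 12.1 (7.05 to 17.0). Ndufv1, which binds NADH and FMN, gave 6.06, 4.38 and 17.1 points in naive and -2.61, -4.16 and 12.6 in EpiLC libraries. It was above 0 in 4 of 6, and its sum of 3.85 (-1.42 to 9.09) held 0.

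Not every subunit shared this sign. Ndufa12 (chr10:94198720-94221443), an accessory subunit, was below 0 in all 6 libraries. It had -14.4, -5.19 and -18.3 points in the naive and -18.0, -12.5 and -13.3 in the EpiLC libraries, and -14.1 (-20.3 to -7.87) in the sum. In its left window 66.7% of reads were Crick and in its right window 52.5%, so most forks entered this gene from upstream. Among the other subunits, Ndufc1 reached 21.6 points and Ndufs6 18.1, while Ndufb5 was at -7.83. Ndufb5 starts 615 bp from Mrpl47 and shares its reads.

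The 8 assembly factors of complex I gave 10.1, 1.8 and 1.11 points in naive control, dKO and dCD cells and 2.93, 5.69 and 6.79 in the EpiLC libraries. Ndufaf4 was the highest of them. Its bias was 11.3, 30.5 and 51.2 points in naive control, dKO and dCD cells and 14.6, 17.2 and 17.6 in EpiLCs. The naive values spread widely and the EpiLC values lay close together. The sum was 20.1 (14.1 to 25.8), and 17.5 corrected for T minus A. Ndufaf3, which acts together with Ndufaf4's protein in assembly, was lowest at -4.41 (-9.53 to 0.73), with 5.24, -18.2 and -15.2 points in naive and -6.60, -1.04 and 0.16 in EpiLC libraries.

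Complex III had the lowest sum of the 7 classes, 3.39 points (1.51 to 5.26), on 8 genes. Its libraries gave 9.97, -0.62 and 8.41 points in naive and 1.51, 3.66 and 1.92 in EpiLC cells, naive dKO alone lying below 0. Uqcrfs1 (chr13:30540308-30545362), the Rieske iron-sulfur protein, had 24.7, 30.3 and 29.7 points in the naive and 12.2, 7.13 and 12.6 in the EpiLC libraries. Each naive value was above each EpiLC value, and the sum was 14.8 (9.03 to 20.4), though it was -2.19 with windows of 10 kb. Uqcrc1, a core subunit, had 10.4, -1.06 and 16.7 points in naive and -1.89, 4.95 and 5.68 in EpiLC libraries, and 4.19 (-1.08 to 9.42) in the sum. Uqcr11 was lowest. It had 9.15, -25 and 11.4 points in naive and -3.35, -12.5 and -9.46 in EpiLC libraries, so dKO was the lowest library in each state, and the sum was -6.37 (-11.3 to -1.42).

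Complex IV gave 6.52, 7.46 and 3.67 points in naive and 5.80, 6.03 and 4.75 in EpiLC libraries, the most even class across states, and 5.62 (4.29 to 6.94) in the sum. Cox5b (chr1:36691449-36693681), a zinc-binding subunit, stood highest with 26.4, 33.3 and 16.4 points in naive and 25.5, 16.4 and 18.7 in EpiLC libraries. All 6 were above 16 points, and the sum was 21.5 (16.4 to 26.4). Cox6b1, which bridges the complex's dimer, followed with 28.8, 20.1 and 17.7 points in naive and 29.2, 17.8 and 12.9 in EpiLC libraries, and 20.8 (15.3 to 26.1) in the sum. In both states its control library was the highest and dCD the lowest.

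Cox5a, Cox4i1 and Cox6a1 differed by library. Cox5a, a subunit on the matrix side, had 20.7, 20.3 and 1.91 points in naive and -1.17, 8.89 and -0.07 in EpiLC libraries. Cox4i1, the main form of a regulatory subunit, had 18.5, 17.3 and 10.8 points in naive and 4.71, -1.80 and 4.48 in EpiLC libraries. The naive values were above the EpiLC values, but the sum of 6.38 became -2.91 corrected for T minus A. Cox6a1 had 1.19, -1.34 and 28.0 points in naive and 3.90, -5.28 and 1.66 in EpiLC libraries, naive dCD alone standing high.

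Tissue-restricted isoforms offer a comparison within protein families. The 8 restricted genes were Cox4i2, Cox6a2, Cox6b2, Cox7a1, Cox7b2, Cox8b, Cox8c and Ndufa4l2, and the 6 widely used counterparts Cox4i1, Cox6a1, Cox6b1, Cox7a2, Cox8a and Ndufa4. Restricted isoforms gave -0.49, 0.26 and -1.20 points in naive and 2.04, 6.10 and 2.86 in EpiLC libraries. The widely used ones gave 8.16, 7.08 and 8.33 in naive and 7.56, 3.72 and 5.66 in EpiLC libraries. Naive cells therefore showed a bias near 0 at restricted isoforms and one near that of other members at their counterparts. In the 3 naive libraries together, restricted minus widely used was -8.40 points (-14.2 to -2.53), and -5.15 (-11.0 to 0.71) corrected for T minus A. In EpiLCs it was -1.85 (-5.28 to 1.58). Restricted isoforms minus all other members gave -8.69 (-12.6 to -4.81) in naive libraries, -5.06 (-8.95 to -1.18) corrected for T minus A, and -1.61 (-3.89 to 0.67) in EpiLCs. The corrected EpiLC contrasts were -0.02 (-3.45 to 3.41) with the counterparts and 0.99 (-1.30 to 3.27) with all other members.

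Gene by gene the contrast was uneven. Cox7a1 (chr7:30184144-30186078) had -22.4, -1.8 and -1.36 points in naive and -3.68, 4.96 and -6.28 in EpiLC libraries, and -4.14 (-9.10 to 0.84) in the sum. Its counterpart Cox7a2 was also near 0, with 2.55, -6.88 and 6.77 points in naive and -0.17, 8.12 and 0.45 in EpiLC libraries. Cox8b had -1.15, 0.41 and -4.24 points in naive and -2.28, -2.78 and 8.70 in EpiLC libraries, and Cox8a 3.16, 6.21 and -9.44 in naive and 3.36, 10.8 and 6.44 in EpiLC libraries. Their sums of 0.29 (-4.82 to 5.38) and 4.62 (-0.32 to 9.54) overlapped, although the promoters printed above differ in CpG count and motifs.

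The lung isoform Cox4i2, the muscle gene Cox6a2 and the testis genes Cox6b2, Cox7b2 and Cox8c had sums of -0.32, -0.34, 1.87, 3.55 and 2.89 points, each with an interval holding 0. One restricted gene went against this. Ndufa4l2 (chr10:127514967-127517154), a hypoxia-induced relative of Ndufa4, had 16.7, 20.4 and 30.3 points in naive and 6.18, 19.0 and 16.8 in EpiLC libraries. It was above 0 in each, with a sum of 16.2 (11.3 to 21.04), and lies among 3 other start sites within 25 kb. Ndufa4 itself had -14.4, -8.0 and -22.5 points in naive and 12.4, -2.31 and 10.5 in EpiLC libraries, on 208 reads to the left and 551 to the right.

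ATP synthase had 9.57, 9.35 and 13.2 points in naive and 3.53, 5.90 and 7.18 in EpiLC libraries, and the highest median over genes of the 7 classes (9.62). The sum was 6.88 (5.65 to 8.12), with 15 of 18 genes above 0 (83.3% against 72.5% of other genes). Atp5f1 (chr3:105942698-105960099), subunit b of the stalk that holds the catalytic head still, had 23.8, 20.8 and 20.2 points in naive and 25.1, 19.4 and 11.0 in EpiLC libraries. Atp5a1, the alpha subunit of the catalytic head, had 11.2, 29.9 and 25.6 points in naive and 18.7, 14.97 and 19.6 in EpiLC libraries. Their sums were 19.6 (14.1 to 25.1) and 18.5 (13.2 to 23.7), and no library was near 0 for either gene.

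The beta and delta subunits of the same head did not follow. Atp5b, the catalytic beta subunit, had -10.2, -3.48 and 0.38 points in naive and 1.54, -4.31 and -3.29 in EpiLC libraries, around 0 in each state, and -2.89 (-7.81 to 2.03) in the sum. Atp5d (chr10:80138632-80145818), a part of the rotating shaft, was the lowest of all 165 genes. It had -22.0, -22.4 and -19.2 points in naive and -13.1, -11.5 and -18.9 in EpiLC libraries, below 0 in all 6, and -16.5 (-21.4 to -11.6) in the sum. With windows of 10 kb its sum was 5.48, so the sign came from reads farther than that from the start. Atp5g1, which encodes a copy of the c-ring subunit, had 8.91, 8.05 and 30.4 points in naive and 8.76, 4.16 and 7.48 in EpiLC libraries, but its sum of 8.69 was -1.62 with windows of 10 kb.

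The large mitoribosomal subunit had 9.91, 9.69 and 10.2 points in naive and 5.06, 5.82 and 7.25 in EpiLC libraries, and the highest sum of the 7 classes, 7.05 (6.29 to 7.82). Mrpl35 (chr6:71812997-71826969) was the highest gene of all. It had 42.1, 40.9 and 51.9 points in naive and 24.1, 31.0 and 28.2 in EpiLC libraries, each naive value above each EpiLC value. Of reads to its left 35.3% were Crick and of those to its right 67.8%, a difference of 32.4 (27.3 to 37.3), or 21.7 corrected for T minus A. Its most upstream GENCODE start, used here, has 2 CpGs within 500 bases and lies 3185 bases from the RefSeq start. Mrpl42 (28.9 points) and Mrpl1 (23.3) were next. Mrpl47 was lowest, with 12.3, -4.01 and -12.0 points in naive and -21.2, -6.54 and -12.6 in EpiLC libraries, and -9.43 (-14.6 to -4.15) in the sum. With windows of 10 and 50 kb that sum was 3.63 and 3.32, so its sign depended on the window. Mrpl12, which also binds the mitochondrial RNA polymerase, was near 0 in naive cells, at 1.32, 0.62 and 0.34 points, and below it in EpiLCs, at -5.23, -8.37 and -9.69.

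The small subunit had 7.31, 4.51 and 5.94 points in naive and 3.77, 5.43 and 5.74 in EpiLC libraries, and 5.28 (4.27 to 6.29) in the sum. Mrps36 (chr13:100735955-100744659) was highest with 35.7, 16.9 and 26.4 points in naive and 20.8, 28.7 and 21.7 in EpiLC libraries. Mrps7 (chr11:115603925-115608036), a protein of the small subunit's head, was lowest with -18.6, -2.00 and -25.2 points in naive and -9.04, -8.88 and -9.72 in EpiLC libraries. Both kept their sign in all 6 libraries, with sums of 24.9 (19.7 to 29.8) and -10.7 (-15.6 to -5.75). Mrps12, which lies at the decoding centre, had -9.43, 20.1 and 7.13 points in naive and -2.22, -5.89 and 3.10 in EpiLC libraries, and -0.13 (-5.81 to 5.54) in the sum.

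The large subunit was above the small one by 1.78 points (0.51 to 3.04), by 3.95 (1.42 to 6.49) in naive libraries and by 1.04 (-0.42 to 2.50) in EpiLCs. Corrected, the first value was 0.84 (-0.43 to 2.11). The 87 respiratory and ATP synthase genes had 5.48 points and the 78 mitoribosomal genes 6.37, and that difference of -0.90 (-1.73 to -0.06) was 0.31 (-0.53 to 1.15) corrected for T minus A.

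**Figure D4:**
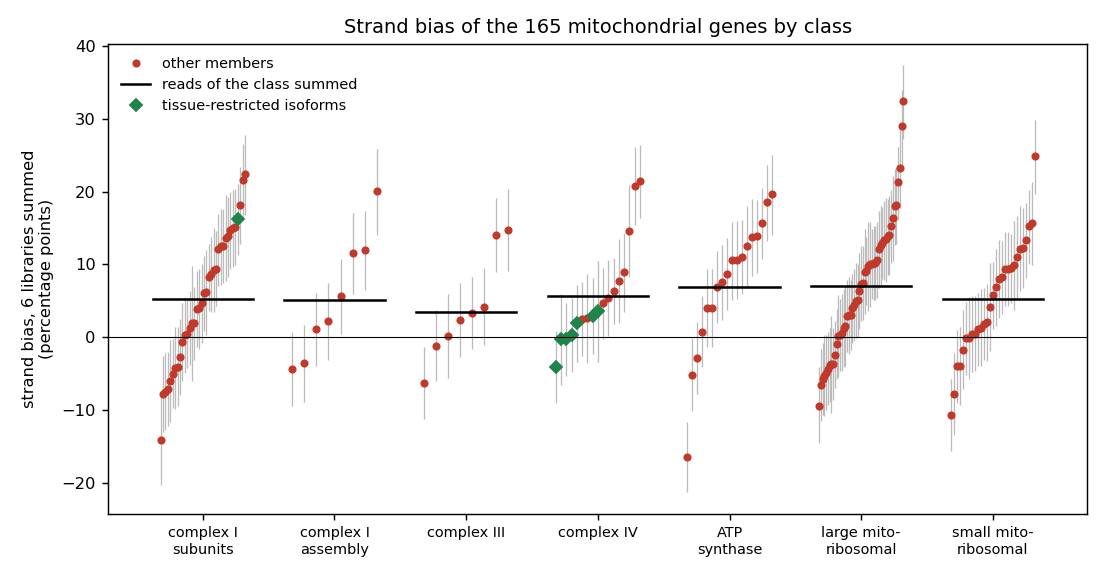
Strand bias in percentage points of each of the 165 mitochondrial genes, reads of the 6 libraries summed, by class and in rising order within a class, with 95% counting intervals in grey. Diamonds are tissue-restricted isoforms and black lines the reads of the class summed, from 3.39 in complex III to 7.05 in the large mitoribosomal subunit; genes run from -16.5 (Atp5d) to 32.4 (Mrpl35).

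Promoter letters were read from RefSeq promoters, 250 bases before to 50 after the start, on both strands. A promoter was in the table for 138 members (137 distinct promoters), and its start lay within 100 bases of the GENCODE start for 106. The NRF1 letters were in 19 of the 137 (13.9%) against 2.70% of all 31396 autosomal promoters, the ETS letters in 16 (11.7%) against 3.95%, and the YY1 letters in 15 (10.9%) against 1.39%. A TATAAA was in 11 (8.03%) against 13.6%.

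At members the intervals for the NRF1 and ETS letters held 0. Members with and without the NRF1 letters had 6.23 and 5.57 points, a difference of 0.66 (-0.67 to 1.99), and with and without the ETS letters 5.03 and 5.72, a difference of -0.68 (-2.10 to 0.73). Corrected for T minus A these differences were 1.22 (-0.11 to 2.55) and -0.80 (-2.22 to 0.62). Other genes were higher by 1.68 (1.45 to 1.91) with the NRF1 letters and by 0.80 (0.61 to 0.99) with the ETS letters, or by 0.29 (0.06 to 0.52) and -0.23 (-0.42 to -0.04) after correction for T minus A. As the printed pairs show, Ndufaf4 and Uqcr11 share the NRF1 letters with opposite signs. The 15 genes with the YY1 letters had 10.7 points, with single genes from -7.82 (Mrps24) to 32.4 (Mrpl35), against 5.00 for those without. That difference of 5.72 (4.27 to 7.18) was 2.30 (0.84 to 3.76) corrected for T minus A. It rested on few genes, since Mrpl36 and Ndufs6 start 29 bp apart and share their reads, and the RefSeq start of Mrpl35 lies 3185 bases from the one used. With Mrpl36 left out the corrected difference was 1.87 (0.36 to 3.37). Without Mrpl35 it was 1.11 (-0.40 to 2.62), without both 0.55 (-1.01 to 2.11), and over the 9 carriers whose starts lie within 100 bases 1.37 (-0.48 to 3.23), the last 3 holding 0. As deposited the 4 were 5.16, 4.24, 3.52 and 6.26. At other genes the YY1 letters went with 7.11 against 5.35 points, but corrected for T minus A with 2.28 against 2.30, a difference of -0.02 (-0.33 to 0.29). Members with TATAAA were lower, at 1.78 against 5.98 points, as other genes were at 3.09 against 5.68. After the correction these differences were -1.77 (-3.46 to -0.07) and -1.18 (-1.33 to -1.03). The pair printed above differed in the mutant libraries and was close in the control ones. Mrps27 had 9.85, 27.9 and 16.9 points in naive and 6.92, 10.3 and 13.9 in EpiLC libraries, and Ndufaf8 9.44, -8.86 and -14.8 in naive and 9.38, 0.75 and 1.2 in EpiLC libraries. Mrps27 was above 0 in each, but its sum of 12.2 was -3.09 corrected for T minus A, where Ndufaf8 had 3.29.

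The wider pathway was read from lists of 119 other nuclear genes. As a group they had 5.12 points (4.62 to 5.62) in the 6 libraries summed, 89 of them above 0 (74.8% against 72.5% of other genes), 55 with the whole interval above 0 (46.2% against 46.9%) and 6 with it below (5.04% against 9.20%). Members were above them by 0.79 (0.14 to 1.44). Some listed genes share reads with a member, as Sars2 does with Mrps12, or with each other, as Sdhd and Timm8b do. The intervals leave that out. After the correction the group had 1.604 (1.11 to 2.10), with 67 above 0 (56.3% against 62.6%), and the difference was 1.12 (0.47 to 1.77). The corrected count above 0 was 5 (62.5%) for complex II, 2 (66.7%) for the cytochromes and 14 (41.2%) for other assembly factors. It was 23 (59.0%) for mitochondrial DNA expression, 16 (61.5%) for import and 7 (77.8%) for the regulators, against 62.6% of other genes. Complex II, the link to the citric acid cycle, had 3.18 points over 8 genes, 7 above 0 (87.5% against 72.5%), with 7.89 at Sdha and 6.67 at Sdhb. Cytochrome c and c1 had 6.93 over 3 genes, all above 0, with 5.11 at Cycs and 6.98 at Cyc1, though the third, Cyct, was -2.18 corrected for T minus A. Other assembly factors had 3.68 over 34 genes, 22 above 0 (64.7% against 72.5%), and Coa3, a factor for complex IV, was at -13.9.

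Genes for replication, transcription and translation of mitochondrial DNA had 5.65 points over 39 genes, 29 above 0 (74.4%, near the 72.5% of other genes). They ran from -14.1 at Mterf4, which serves mitoribosome assembly, to 21.9 at Tfb1m, which methylates the small ribosomal RNA. After the correction these were -8.15 and 7.56, and the ends were Mtfmt (-10.2) and Mtif2 (15.1). Tfam, which packages mitochondrial DNA, had 1.4 points, its polymerases Polg -1.35 and Polrmt -3.59. Protein import had 6.04 over 26 genes, 19 above 0 (73.1% against 72.5% of other genes), and the whole interval lay below 0 at 3 (11.5% against 9.20%). Pmpcb, a subunit of the processing peptidase, was highest at 27.2. Corrected it was 14.4, below Tomm7 (15.6) and Timm44 (14.8). The 9 transcription regulators all lay above 0, at 6.32 points together, with 8.33 at Gabpa, 4.58 at Nrf1 and 2.05 at Yy1. Their corrected values were -1.25, 0.17 and -4.72, below 0 for Gabpa and Yy1, and 2.18 (0.40 to 3.97) for the 9 together.

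Cytosolic ribosomal protein genes, which share short length and high transcription with the mitochondrial ones, had a larger bias. Over 87 genes it was 7.92 points (7.35 to 8.5), and members minus these genes gave -2.01 (-2.72 to -1.30). Corrected for T minus A it was 5.92, and the difference was -3.20 (-3.91 to -2.48).

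Cells lacking KMT2D besides KMT2C were below the control in the naive state, and in EpiLCs the interval held 0. In naive cells dKO minus control was -2.35 points (-4.37 to -0.33) at members and -0.18 at other genes. It was -5.20 (-8.57 to -1.84) at the 65 members with no other TSS from 1 to 25 kb away. That set is wider than the members with no other TSS nearby described above, since starts within 1 kb are allowed. Members minus others was -2.17 (-4.20 to -0.14) for naive dKO minus control, and -2.16 (-4.20 to -0.13) corrected for T minus A. Members minus other CpG-rich genes was -1.89 (-3.30 to -0.49) in naive control and -3.41 (-4.91 to -1.91) in naive dKO cells. These intervals overlap. In EpiLCs dKO minus control was 1.16 (-0.05 to 2.36) at members and 0.33 at other genes. It was -0.20 (-2.10 to 1.69) at members with windows of 10 kb and 2.11 (0.13 to 4.10) at those 65 members. Members minus others was then 0.82 (-0.39 to 2.03). The difference between the states in dKO minus control was 3.5 (1.15 to 5.86).

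By role, the naive dKO difference was -3.45 (-6.23 to -0.68) at respiratory and ATP synthase genes and -0.97 (-3.90 to 1.97) at mitoribosomal genes. It was -4.40 (-8.71 to -0.08) at complex I subunits and -10.6 (-19.7 to -1.38) at complex III. No other of the 7 classes had an interval without 0 in that comparison. Corrected for T minus A, complex I gave -4.21 (-8.53 to 0.12), complex III -10.5 (-19.6 to -1.28) and the complex I assembly factors -9.65 (-18.8 to -0.37), so the first no longer excluded 0 and the last did. A single gene differed by at least 10 points often, and depth per gene was low. Of the members 46 (27.9%) were lower by that much in naive dKO than in control cells and 28 (17.0%) higher, against 24.9% and 24.5% of all tested genes. The share below the background was that of the higher ones. Members were read more deeply, at 2.40 against 2.05 reads per kb at other genes in naive control cells, 10 to 25 kb from the TSS. The part of depth in these counts was not tested.

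In naive cells the interval for the catalytic-dead line held 0. There dCD minus control was -0.37 points (-2.42 to 1.67), against 0.46 at other genes, and no class had an interval without 0. With windows of 10 kb it was -3.20 (-6.42 to 0.01), beside -3.64 (-6.81 to -0.46) in dKO, and divided by the amplitude described below -2.35 (-4.15 to -0.55). In naive cells dCD minus dKO was 1.97 (-0.14 to 4.08). It was 0.43 (-2.88 to 3.75) with 10 kb, while the interval lay above 0 with 50 kb, 2.51 (1.01 to 4.01), with the median TSS, 2.19 (0.08 to 4.30), with the bins within 2 kb left out, 2.27 (0.06 to 4.49), and at the 65 members with no other TSS from 1 to 25 kb away, 3.90 (0.37 to 7.43). By 10 points or more, 44 members (26.7%) were lower and 37 (22.4%) higher, against 23.7% and 25.4%. In EpiLCs dCD was above control by 2.10 (0.89 to 3.31), against 0.74 at other genes. Members minus others was 1.36 (0.15 to 2.57), or 1.31 (0.10 to 2.52) corrected for T minus A. Members minus other CpG-rich genes was -2.70 (-3.60 to -1.80) in EpiLC control and -1.58 (-2.41 to -0.75) in EpiLC dCD cells, and these intervals overlap. The EpiLC difference was alike at respiratory genes, 2.02 (0.36 to 3.68), and at mitoribosomal genes, 2.17 (0.42 to 3.92), and among the classes ATP synthase alone had an interval without 0, at 3.65 (0.12 to 7.19). After the correction it was 3.01 (-0.54 to 6.56) at ATP synthase and 1.35 (-0.40 to 3.11) at mitoribosomal genes, both holding 0, and 1.83 (0.17 to 3.49) at respiratory genes. Here 8 members (4.85%) were lower by at least 10 points and 22 (13.3%) higher, against 10.9% and 13.8%. In EpiLC dKO cells 11 (6.67%) were lower and 21 (12.7%) higher, against 11.5% and 12.8%. In both EpiLC mutants the share that was lower by this much was smaller at members than over all genes, and the share that was higher was near the background as deposited. Members were read more deeply here too, at 6.83 against 5.98 reads per kb at other genes in EpiLC dKO cells, and the part of depth was not tested. After correction the higher ones in dCD cells were 13 (7.88% against 12.1%). Of the 28 comparisons of a class in a mutant with its control, 3 had an interval without 0, and 2 after the correction. The dCD minus control difference was higher in EpiLCs than in naive cells by 2.47 (0.10 to 4.85) as deposited. Corrected for T minus A its parts were -0.18 in naive cells and 1.61 in EpiLCs, with no interval given for the difference between the states.

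Fork direction as a whole was more sharply polarised in dCD than in control cells, with an SD of the Crick share over 50 kb bins, less counting noise, of 16.5 against 12.6 percent in naive and 12.3 against 9.71 in EpiLC libraries. In dKO it was 13.3 and 10.6. Divided by this amplitude, the EpiLC dCD difference was 0.80 points (-0.29 to 1.90), so its interval then held 0.

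EpiLC and naive libraries of one line differed too. In control cells EpiLC minus naive was -4.57 points (-6.21 to -2.93) at members and -2.26 at other genes, with -2.32 (-3.96 to -0.67) between these values. Members minus other CpG-rich genes was -1.89 (-3.30 to -0.49) in naive and -2.70 (-3.60 to -1.80) in EpiLC control cells, and these intervals overlap. EpiLC minus naive was -1.07 (-2.75 to 0.62) in dKO and -2.10 (-3.82 to -0.38) in dCD cells at members, and -1.74 and -1.97 at other genes. Corrected for T minus A the members gave -3.06 (-4.70 to -1.42) in control, -0.13 (-1.82 to 1.56) in dKO and -1.27 (-2.99 to 0.45) in dCD cells, so the dCD interval then held 0. With the 3 lines as pairs, the mean difference was -2.58 ± 1.8 (SD, n = 3) and below 0 in each, with p = 0.25 by an exact two-sided sign-flip permutation test, the smallest that 3 pairs allow. Relative to other genes it was -0.59 ± 1.55, with p = 0.75 by the same exact test. In the control 53 members (32.1%) were lower by at least 10 points in EpiLCs and 15 (9.09%) higher, against 26.5% and 16.6% of all genes. Each naive value was above each EpiLC value at 25 members (15.2%, against 10.9% of all genes), Uqcrfs1, Mrpl35 and Cox4i1 among them, and below each at 6 (3.64% against 4.81%), which were Atp5d, Mrpl28, Mrps24, Ndufa4, Ndufs5 and Uqcrq. After T minus A correction these were 20 (12.1% against 8.42%) and 6 (3.64% against 5.30%). The amplitude was lower in EpiLC libraries of each line as well. Divided by it, dCD cells gave 0.06 points in place of -2.10. The dKO difference was then also above 0, and the control alone stayed below 0.

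**Figure D5:**
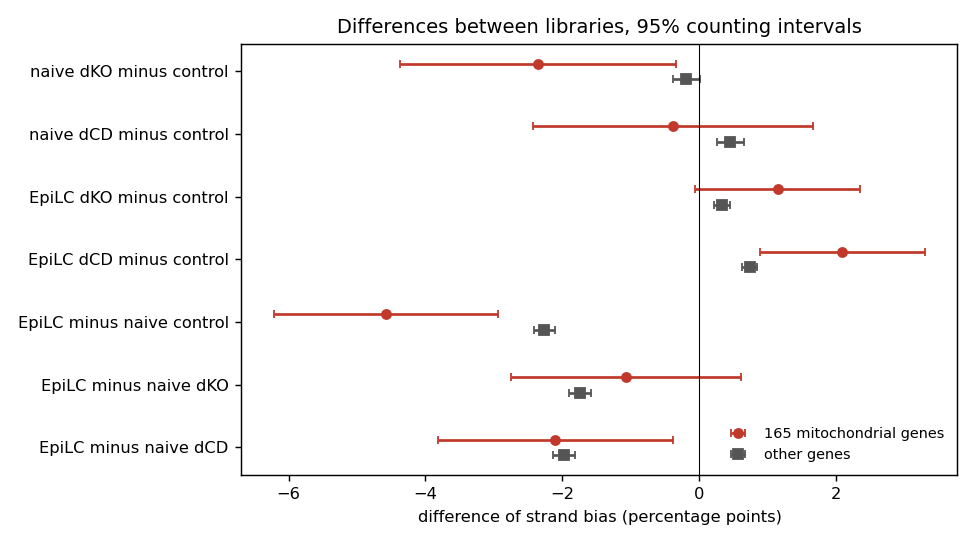
Differences of strand bias between libraries in percentage points, for the 165 mitochondrial genes and for all other autosomal protein-coding genes, mutant minus control in each state and EpiLC minus naive in each line. Bars are 95% counting intervals; for mitochondrial genes those of naive dKO (-2.35), EpiLC dCD (2.10) and the state difference of control (-4.57) and dCD cells (-2.10) do not reach 0, the last of which does after T minus A correction (-1.27, -2.99 to 0.45).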

How the data were processed

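OK-seq was measured in 12 samples of mouse ESCs and EpiLCs, and the authors deposited 1 track per condition with the 2 replicates summed. The submitters' processing notes name FastQC, Trim Galore, Bowtie2 and Picard and the builds mm10 and hg19, with no role given. Each deposited track covers 2725511 bins of 1 kb and gives, for the Watson and for the Crick strand, a read density (reads per bp) that is not scaled to equal depth. Every deposited value was a whole multiple of 0.001, which is 1 read in a bin (largest deviation 0), and was multiplied by 1000. The file position was read as the end of its bin, since 0 reads then fell in the 74135 kilobases made of N only, against 3045 with the start. A bin whose count passed 10 times the median was dropped from all libraries (83 bins).

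The start was the most upstream TSS of a gene. Strand bias was computed over 25 kb on each side with Python 3.11.15, numpy 2.4.6, pandas 2.3.3 and scipy 1.17.1. Differences of biases combined the intervals of both. The part taken off as T minus A correction was the fitted response of the Crick share of a bin, relative to 10 neighbours on each side, to the excess of T over A on the reference strand, subtracted with the sum of reads kept. The procedure was tested on simulated strands. With 1 summed library per condition, comparisons describe these libraries. The state difference over the 3 lines was tested by exact sign flips, a test added after seeing the data.

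Named genes were the catalytic or well-known subunits and isoforms of fixed lists and the highest and lowest of each class, plus others given after their values were seen (motif carriers, runners-up). Counts used a threshold of 10 points at genes with at least 10 reads a side in all libraries. The members and lists were chosen with earlier results of these data known. Alternatives were windows of 10 and 50 kb, other start sites, bins, weights, depths and gene subsets, and division by the amplitude. The combinations of CpG quartile or amplitude with the T minus A correction, leaving out tissue-restricted isoforms or single carriers of the YY1 letters, and a minimum of 20 reads were added after seeing the data.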

Additional observations from a re-analysis of the deposited data

Results flagged for a closer look

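The difference of dKO minus control between EpiLC and naive cells at the mitochondrial genes was 3.504 points (1.15 to 5.86), and that of dCD minus control was 2.47 (0.10 to 4.85). Both are listed because the counting interval of the difference between the states did not hold 0 with reads as deposited. Corrected for T minus A, dKO minus control was -2.20 in naive cells and 0.73 in EpiLCs, and dCD minus control -0.18 and 1.61. No corrected interval is given for the difference between the states. Each state has 1 summed library per line, so neither was tested against the spread between replicates, and both share the control libraries.

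Genes of the same prefixes on chromosome X lie outside the comparisons. The 3 of them, Ndufb11, Ndufa1 and Cox7b, had a summed bias of 8.20 points (3.73 to 12.6) in the 6 libraries. By library they gave 18.5, 4.85 and 13.2 points in naive control, dKO and dCD cells and 0.79, 4.0 and 14.8 in the EpiLC libraries, and Cox7b was the highest at 16.5 (9.5 to 23.4).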

How the results depend on the processing

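No paired analysis was possible from these tracks, since they sum the numbered replicates, which also prevents leaving one out. The lines as pairs of states are given in the report. The summed bias of members was above 0 in every library under each alternative run on all of them. In the highest CpG quartile corrected for T minus A, the 36 members there were at -0.55 (-2.28 to 1.19) in EpiLC dKO cells. Leaving no bin out, a mean over members, thinning, 1 member per cluster, the median TSS, the bins within 2 kb left out, no tissue-restricted isoforms and a minimum of 20 reads moved no main value beyond its interval. The last 2 settings and those that join 2 choices were chosen after seeing the data. The depth limits single genes, and the intervals leave out the spread among genes and replicates.

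With windows of 10 kb the bias was 6.56 in naive dCD and 4.25 in EpiLC dKO, naive dCD minus control -3.20, EpiLC dKO minus control -0.20, and members minus others 3.68 in naive and 0.71 in EpiLC control. Single genes turned over, with Atp5d at 5.48, Atp5g1 at -1.62, Mrpl47 at 3.63 and Uqcrfs1 at -2.19. With 50 kb the biases, in the order naive control, dKO, dCD and EpiLC control, dKO, dCD, were 10.48, 8.91, 11.42, 6.50, 6.92 and 8.33, members minus others 3.78, 2.18, 3.81, 1.70, 1.67 and 2.57, and Mrpl47 3.32. Corrected for T minus A the biases were 4.60, 2.40, 4.42, 1.54, 2.27 and 3.15, the members at 10 points or more 56, 43 and 47 in naive and 20, 30 and 30 in EpiLC libraries in that order (33.9%, 26.1%, 28.5%, 12.1%, 18.2% and 18.2%, against 26.02%, 27.3%, 28.1%, 14.1%, 13.1% and 15.04% of all tested genes), members higher by 10 points or more in EpiLC dCD 13 (7.88% against 12.1%), and Cox4i1 -2.91. With no other TSS from 1 to 25 kb away (65 members, other starts within 1 kb allowed) the bias was 11.09 in naive control, 6.63 in EpiLC dKO and 8.07 in EpiLC dCD. There naive dKO minus control was -5.20, EpiLC dCD minus control 3.56, EpiLC minus naive -6.58 in control and 0.74 in dKO, and members minus others 3.71 in naive control, 1.41 in EpiLC dKO and 2.56 in EpiLC dCD. Divided by the amplitude, EpiLC dCD minus control was 0.80 and EpiLC minus naive in dCD 0.059, and with the correction as well, EpiLC minus naive was -2.60 in control and -0.18 in dCD. Within the highest CpG quartile members minus others was -4.68, -4.27, -5.01, -3.30, -4.87 and -2.91 in the same order, so the excess in naive control and EpiLC dCD turned over. Adding the correction it was -2.62, -2.58, -2.80, -1.71, -3.12 and -1.30. The causes were not tested.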

Other observations

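Taken by chromosome, the spread of members was wide for so few genes each. Besides the chromosomes named in the report, the 16 members of chromosome 11 had 1.25 points (-0.04 to 2.54) where other genes there had 4.59, and the 10 of chromosome 1 had 9.20 (7.44 to 11.0) against 5.98. The 15 members of chromosome 7 had 4.27 and other genes there also 4.27. These sums describe the 6 libraries together, and members of a chromosome can share a replication domain.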
